A study of Mus musculus with 6 samples.

Results

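The 10 extraembryonic lineage transcription factors described here fall into 5 factors of the primitive endoderm (Gata4, Gata6, Sox17, Sox7 and Hnf4a) and 5 of the trophectoderm (Cdx2, Gata2, Gata3, Tfap2c and Eomes). They were chosen by role, with earlier results of these data known. Their probe sets are those whose only gene symbol in the platform annotation is a member's name. All 10 were measured, with 23 of the 45037 probe sets and 10 of the 18193 named genes of the array. Mouse embryonic stem cells (mESCs) whose Dicer (Dcr) alleles are both floxed were grown without feeder cells on gelatin with serum and LIF, and transfected with GFP (Dcr WT, 3 arrays) or with GFP plus Cre recombinase (Dcr KO, 3 arrays). RNA was taken 5 days later from polyclonal populations, and the methods call the arrays of a group biological triplicates. Both groups carry the floxed alleles and the transfection. Dcr WT cells received no Cre, so Cre itself and the deletion cannot be told apart.

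The first lineage choices of the mouse embryo set the trophectoderm, which builds the placenta, apart from the inner cell mass, and then the primitive endoderm, which lines the yolk sac, apart from the epiblast, the source of mESCs. Each lineage is held by a small circuit of transcription factors: Cdx2, Gata3, Eomes and Tfap2c in the trophectoderm, and Gata6, followed by Sox17, Gata4, Sox7 and Hnf4a, in the primitive endoderm. Forced Cdx2 or Gata6 can turn mESCs into trophoblast or extraembryonic endoderm cells, while Pou5f1 and Nanog oppose these circuits. Dicer makes the mature miRNAs, most of which are lost from mESCs without it.

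Dicer1 itself averaged 7.61 on the log2 scale in Dcr WT (SD 0.40, n = 3), fell to 6.28 in Dcr KO (SD 0.34, n = 3, adjusted p = 0.0134 from limma), and every Dcr KO array lay below every Dcr WT array. The cells carried the marks of mESCs in both groups, with Pou5f1 (12.33 and 12.71), Sox2 (12.69 and 13.01), Nanog (12.14 in both), Zfp42, Esrrb, Dppa5a, Tdgf1 and Utf1 all above the minimum level given next. To be tested, a gene needed a mean log2 level of 4 over all 6 arrays (16 in linear units), after the level the study uses for expressed genes. Of the 18193 genes, 8782 reached it. Groups were compared with limma, and a gene was called at an adjusted p under 0.05 (Benjamini-Hochberg, over all genes tested). The median of each array over expressed probe sets lay between 7.78 and 7.84.

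The 5 primitive endoderm factors were at the floor of the array in both groups. Gata2 and Gata3, GATA factors of the trophoblast, were higher on every Dcr KO array than on any Dcr WT array. The same held for Cdx2 and Gata6, and for 13.3% of all genes. Between group means, Gata2 and Gata3 differed by 1.97-fold and 1.79-fold. Only 3 of the 10 members reached the minimum, Tfap2c, Eomes and Gata3, and none of the 3 was called. One of them, Gata3, had an unadjusted p under 0.05 from limma (adjusted p = 0.0621), as did 32.0% of all genes tested. Over all genes at or above the minimum, 6.91% were called higher in Dcr KO and 6.42% lower. The other 7 members lay under the minimum and were examined in a fit with no minimum, over all 18193 genes, in which 3.85% of genes were called higher. Gata2 was the 1 member called there (adjusted p = 0.0136 from limma), and 4 of the 10 had an unadjusted p under 0.05, against 23.2% of all genes in that fit.

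**Figure D1:**
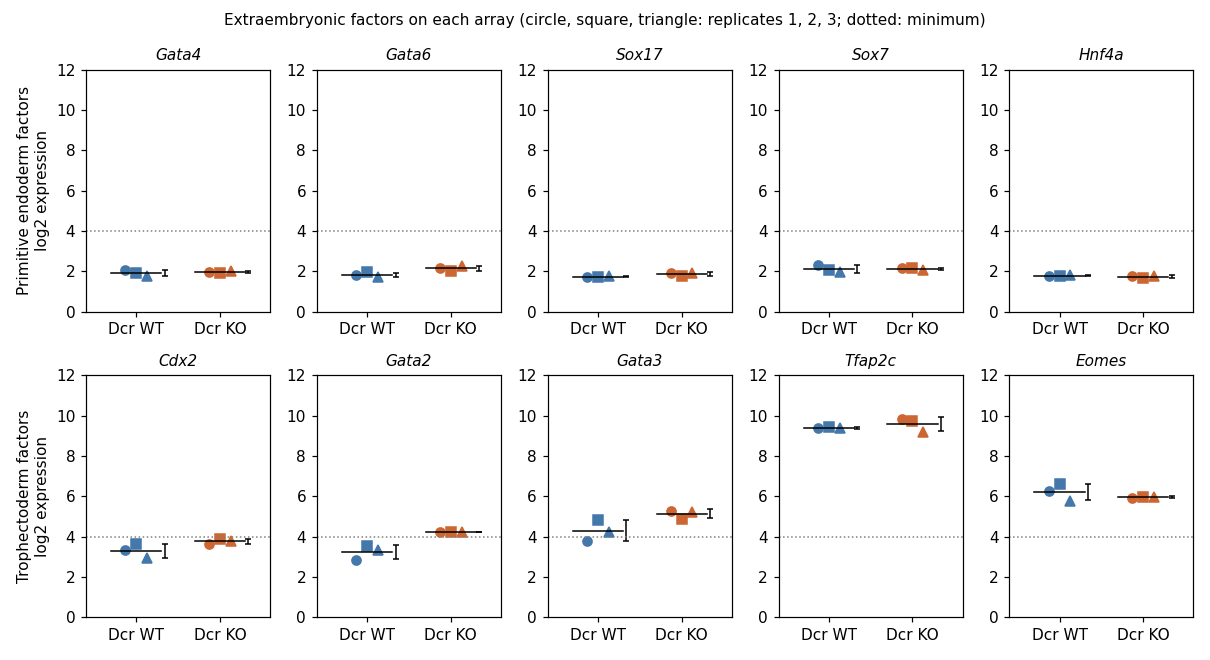
Log2 expression of each member on each array (circle, square and triangle, replicates 1, 2 and 3; horizontal line, mean; bars, SD, n = 3; dotted line, the minimum of 4). The upper row, the primitive endoderm factors, lies near 2 in both groups, and the lower row holds the trophectoderm factors. On every Dcr KO array Gata6, Cdx2, Gata2 and Gata3 lie above every Dcr WT array, as did 13.3% of all genes.

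Gata2 encodes a zinc finger factor of trophoblast and of blood stem cells. As the mean of its 2 probe sets it was at log2 levels of 2.87, 3.53 and 3.36 on the Dcr WT arrays and 4.23, 4.25 and 4.22 on the Dcr KO arrays. All Dcr KO arrays were thus above all Dcr WT arrays and within 0.03 of each other, while the Dcr WT arrays spread more widely (SD 0.34 against 0.015). The Dcr KO values of the 2 probe sets ran in opposite order and offset each other in this mean. Taken singly, the brighter and the dimmer had Dcr KO SDs of 0.13 and 0.14, against 0.49 and 0.30 in Dcr WT. The difference was 0.98 on the log2 scale (standard error 0.16), or 1.97-fold, with a 95% interval of 1.53 to 2.55. Both probe sets moved the same way. The dimmer gave 2.50, 3.05 and 2.58 in Dcr WT and 3.86, 4.09 and 4.10 in Dcr KO, a difference of 1.31 (adjusted p = 0.0121 over all probe sets from limma, where 2.01% of probe sets were called higher). The brighter gave 3.24, 4.01 and 4.14 against 4.60, 4.41 and 4.34, a difference of 0.65 (adjusted p = 0.191 over all probe sets from limma). Dcr WT replicate 1 was the lowest array on both. The Dcr WT level was under the minimum, so the size of the difference rests on a level near background. In the fits with no minimum, the call was lost without replicate 2 of Dcr KO (limma, adjusted p = 0.0549) and with the brighter probe set alone standing for the gene (adjusted p = 0.114 from limma).

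Gata3, which acts beside Cdx2 in the trophectoderm and in T cells, has a single probe set, which gave log2 levels of 3.80, 4.85 and 4.25 in Dcr WT and 5.29, 4.90 and 5.24 in Dcr KO. The groups did not overlap, but the highest Dcr WT array and the lowest Dcr KO array were only 0.05 apart. The difference was 0.84 on the log2 scale (standard error 0.25), or 1.79-fold, with a 95% interval of 1.2 to 2.68, and it did not pass the adjusted test. That outcome turned on Dcr WT replicate 2, the array with the highest Gata3 among the controls. Without it the difference was 1.12 and passed (adjusted p = 0.0224 from limma), and without any other single array it lay between 0.59 and 0.97 and did not.

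Gata2 and Gata3 were the only members up at least 1.5-fold, and the bases before their starts are shown because these are the members that stood highest over the controls. The sequences are the 250 bases before each transcription start in the RefSeq annotation of GRCm38.p6, read 5′ to 3′ on the gene's strand. Capitals mark matches to GCCNNNGGC, which reads the same on both strands and is the motif of AP-2 factors such as Tfap2c. The upstream Gata2 window lies at chr6:88193641-88193890 on the plus strand, the downstream one at chr6:88198414-88198663 on the plus strand, and the Gata3 window at chr2:9878601-9878850 on the minus strand.
Gata2, upstream start: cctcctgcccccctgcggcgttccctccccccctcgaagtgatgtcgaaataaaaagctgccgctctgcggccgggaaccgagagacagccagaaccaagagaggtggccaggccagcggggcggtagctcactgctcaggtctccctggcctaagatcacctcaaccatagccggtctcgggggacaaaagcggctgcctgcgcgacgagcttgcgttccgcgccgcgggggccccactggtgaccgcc
Gata2, downstream start: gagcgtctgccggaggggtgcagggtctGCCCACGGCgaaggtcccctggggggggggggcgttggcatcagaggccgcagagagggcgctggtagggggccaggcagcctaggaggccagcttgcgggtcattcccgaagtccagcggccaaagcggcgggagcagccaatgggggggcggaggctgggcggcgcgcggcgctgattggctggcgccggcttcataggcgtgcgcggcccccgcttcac
Gata3: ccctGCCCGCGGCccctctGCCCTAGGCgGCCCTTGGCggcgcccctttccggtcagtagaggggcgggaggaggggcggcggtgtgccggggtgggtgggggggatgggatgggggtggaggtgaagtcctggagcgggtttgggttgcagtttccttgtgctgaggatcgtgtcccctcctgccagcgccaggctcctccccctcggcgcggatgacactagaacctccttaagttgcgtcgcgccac

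The Gata3 window held 3 AP-2 matches, none overlapping, the downstream Gata2 window held 1 and the upstream Gata2 window none. Of all 32851 windows of this length in the table, 13.7% held an AP-2 match. No match to the GATA motif (GATAA, or TTATC on the other strand) was found in the 3 windows, against 22.6% of all windows. The T-box motif (GGTGTG or CACACC) had 1 match, in the Gata3 window, against 16.3% of all windows. The CDX and SOX motifs had none, against 10.8% and 27.7%. The 3 windows were 67.2%, 74.0% and 70.0% G and C, against a median of 52.4%, and the shares of all windows were not matched for this. The windows were rich in CpG, with 22, 24 and 19 CG pairs against a median of 6 over all windows, and observed over expected CpG ratios of 0.78, 0.74 and 0.63 against a median of 0.37. Of the other members, Cdx2 (ratio 0.69, 1 AP-2 match) and Eomes (0.62, no AP-2 match) had a window each, and Hnf4a had a pair with ratios of 0.18 and 0.19. The Hnf4a window with the ratio of 0.18 held a GATA match and a SOX match. Gata4, Gata6, Sox17, Sox7 and Tfap2c had no entry. A match to a motif is a description of letters, and binding was not measured here.

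Cdx2, the homeobox factor that specifies the trophectoderm, was at log2 levels of 3.33, 3.64 and 2.94 in Dcr WT and 3.65, 3.90 and 3.80 in Dcr KO. The groups did not overlap, though the closest arrays were 0.01 apart. The difference was 0.48 (standard error 0.17, 95% interval 0.09 to 0.88 on the log2 scale) and did not pass with no minimum (adjusted p = 0.137 from limma). Its brighter probe set, at 4.42, 5.09 and 4.07 in Dcr WT and 4.84, 5.32 and 5.06 in Dcr KO, overlapped between groups and had a difference of 0.55. The dimmer gave 2.23, 2.19 and 1.80 against 2.46, 2.48 and 2.54, a difference of 0.42 without overlap. Dcr WT replicate 2 was the highest control for Cdx2, Gata2, Gata3 and Eomes alike.

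Tfap2c, which encodes AP-2γ, a factor of trophoblast, germ cells and naive pluripotent cells, was at log2 levels of 9.37, 9.44 and 9.38 in Dcr WT and 9.85, 9.72 and 9.18 in Dcr KO. Its Dcr WT arrays were nearly equal, and Dcr KO replicate 3 fell below them while the other Dcr KO arrays were above. The difference was 0.19 (standard error 0.17, adjusted p = 0.484 from limma), with a 95% interval from 0.86-fold to 1.5-fold. All 3 probe sets were far above the minimum, with means in Dcr WT of 10.99, 9.20 and 8.01 and differences of 0.33, 0.03 and 0.20. Dcr KO replicate 3 was the lowest Dcr KO array on each of them. Without that array the difference was 0.39 and still did not pass (adjusted p = 0.0741 from limma).

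Eomes, a T-box factor of trophoblast stem cells that also marks the primitive streak, was the 1 trophectoderm member with a lower mean in Dcr KO. Its log2 levels were 6.29, 6.60 and 5.77 in Dcr WT and 5.90, 5.99 and 5.98 in Dcr KO, so the Dcr KO arrays lay close together inside the Dcr WT range. The difference was -0.27 (standard error 0.20, adjusted p = 0.379 from limma), with a 95% interval of -0.72 to 0.19. It ranged from -0.49 without Dcr WT replicate 3 to -0.08 without Dcr WT replicate 2, and no such fit was called. Its 2 probe sets had differences of -0.30 and -0.23.

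**Figure D2:**
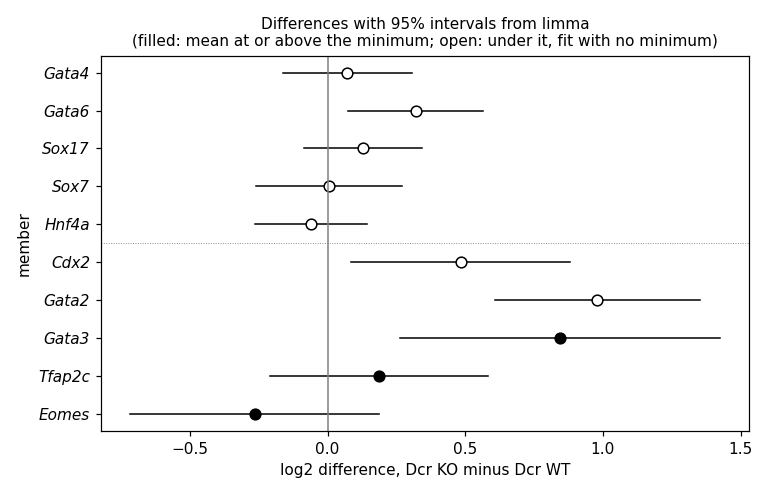
For each member, the Dcr KO mean minus the Dcr WT mean on the log2 scale, with its 95% interval from limma (filled points, members at or above the minimum; open points, members under it, from the fit with no minimum; dotted line, border between the primitive endoderm factors above and the trophectoderm factors below). Gata2 at 0.98 and Gata3 at 0.84 lie farthest to the right, and the intervals of Gata6 and Cdx2 also lie above 0.

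For the primitive endoderm factors, all 13 probe sets of Gata4, Gata6, Sox17, Sox7 and Hnf4a were under 4 on every array, with values from 0.91 to 2.86, where the lower quartile of all probe sets on an array lay between 1.88 and 1.92. At such levels a measured difference is a difference near background, and whether a few cells of a population expressed these factors was not tested.
Gata6, the factor that acts first in this lineage, was at 1.80, 1.95 and 1.74 in Dcr WT and 2.14, 2.03 and 2.28 in Dcr KO. Its groups did not overlap. The difference was 0.32 (standard error 0.11, 95% interval 0.08 to 0.56) and did not pass (adjusted p = 0.114 from limma with no minimum). Of its 3 probe sets, a pair had differences of 0.45 and 0.40 with no overlap between groups, and the other had 0.10.
Sox17, an HMG box factor of primitive and definitive endoderm, was at 1.73, 1.70 and 1.76 in Dcr WT and 1.91, 1.75 and 1.92 in Dcr KO, and the groups overlapped. Sox7, its close relative in the parietal endoderm and the vessel wall, was at 2.34, 2.06 and 1.97 against 2.15, 2.16 and 2.07, with means of 2.12 in both groups. Gata4, the partner of Gata6 in endoderm and heart, was at 2.05, 1.91 and 1.77 against 1.99, 1.93 and 2.03, again with overlap. The differences of Sox17, Sox7 and Gata4 were 0.13, 0.01 and 0.07.
Hnf4a, the nuclear receptor of visceral endoderm and liver, had a mean difference of -0.06 over 4 probe sets (log2 levels of 1.78, 1.76 and 1.81 against 1.77, 1.64 and 1.76). One of its probe sets was lower on every Dcr KO array (1.95, 1.88 and 1.79 against 1.5, 1.6 and 1.5) and the remaining 3 overlapped.

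**Figure D3:**
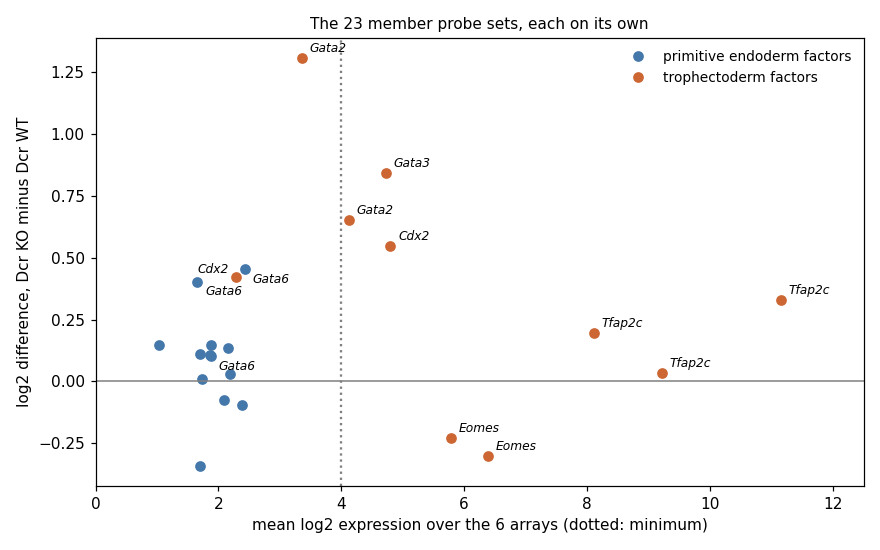
Log2 difference (Dcr KO minus Dcr WT) for the 23 member probe sets against their mean log2 expression over the 6 arrays (blue, primitive endoderm factors; orange, trophectoderm factors; dotted line, the minimum of 4). The 13 primitive endoderm probe sets crowd below a mean of 4 with differences from -0.34 to 0.45, while both Gata2 probe sets and the Gata3 probe set have differences of 0.65 or more.

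Across the 10 members the median difference was 0.16 (0.07 for the primitive endoderm factors and 0.48 for the trophectoderm factors), against -0.02 over all 18193 genes. In 4 of the 10, Gata2, Gata3, Cdx2 and Gata6, the lowest Dcr KO value exceeded the highest Dcr WT value, which was so in 13.3% of all genes, and in none was the order the opposite. Among the 3 members with a Dcr WT mean at or above the minimum, Gata3 was up at least 1.2-fold, as were 18.1% of such genes, and Eomes was down by just that much (1.2-fold), as were 22.0%. With the brightest probe set standing for each gene, 4 members were expressed in Dcr WT. Gata3, Cdx2 and Tfap2c were up at least 1.2-fold, as were 19.2% of genes expressed by that rule. The other, Eomes, was down at least 1.2-fold (difference -0.30), and the share of genes down by that rule was not counted. The members counted here are few, and no test was made of these counts.

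Of 25 other trophectoderm genes measured, 13 were tested, 2 rose and 11 did not pass, where 6.91% of all genes tested were called higher. The median difference was 0.30 against -0.02 over all genes tested. The genes that rose were Rhox6 and Rhox9, neighbouring X-linked homeobox genes known from placenta and germ cells. Rhox6 went from 6.96, 7.29 and 7.56 to 8.26, 8.40 and 8.15, a difference of 1.00 (standard error 0.16, adjusted p = 0.0110 from limma). Rhox9 went from 5.62, 6.17 and 6.40 to 7.03, 7.55 and 7.10, a difference of 1.16 (adjusted p = 0.0176 from limma). Neither gene's groups overlapped, and Rhox9 lost its call without replicate 2 of Dcr KO (limma, adjusted p = 0.0550). Krt18, a keratin of simple epithelia, had a difference of 0.30 (adjusted p = 0.116 from limma), and Esx1, a homeobox gene of the placenta, had -0.26 (adjusted p = 0.144 from limma). Elf5 (1.78 and 1.74), Hand1 (1.98 and 2.04) and Tfap2a (2.35 and 2.39), factors of committed trophoblast, were under the minimum in both groups. Of the 12 genes under it, none was called with no minimum. An unadjusted p under 0.05 from limma was found for 4 of the 12, against 23.2% of all genes. They were Sct (difference 0.46), Sox21 (0.38), Msx2 (0.26) and Dlx3 (-0.255).

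Of 27 other primitive endoderm genes measured, 13 were tested, 2 rose, both chains of the basement membrane, and 11 did not pass. The median difference was 0.25, and 6.91% of all genes tested were called higher. Lama1, the laminin α chain of embryonic basement membranes, went from 6.95, 7.39 and 7.24 to 7.74, 7.77 and 7.62, a difference of 0.52 (adjusted p = 0.0409 from limma). Col4a1, a collagen IV chain, went from 8.41, 8.71 and 8.09 to 9.03, 8.89 and 9.20, a difference of 0.64 (adjusted p = 0.0456 from limma). Fitted alone, its brighter probe set had 0.49 (adjusted p = 0.157 from limma) and its dimmer 0.78 (adjusted p = 0.0428 from limma). The only Lama1 probe set did not pass in that fit (adjusted p = 0.0718 from limma). With no minimum, Lama1 passed and Col4a1 did not (adjusted p = 0.0490 and adjusted p = 0.0557 from limma). Both passed without Dcr WT replicate 2 and in no other fit that left out an array (highest adjusted p = 0.126 and adjusted p = 0.115 from limma). Serpinh1, a collagen chaperone, had 0.39 (adjusted p = 0.0568 from limma) and Col4a2 had 0.47 (adjusted p = 0.0742 from limma). The lineage's surface receptor Pdgfra (2.24 and 2.35) and the secreted visceral endoderm products Ttr (1.64 and 1.59) and Afp (1.73 and 1.67) stayed under the minimum, as did Foxa2 (1.78 and 1.79). Other genes of the list were above it in both groups, among them Sparc (8.55 and 8.82), Cited1 (7.77 and 7.46) and Lrp2 (7.34 and 7.57). So were Hhex (6.31 and 6.12) and Dab2 (4.87 and 4.81), and none of these was called. Of the 14 under the minimum, 1 was called higher and 2 lower in the fit with no minimum. In that fit 3.85% of all genes were called higher and 3.28% lower. An unadjusted p under 0.05 from limma was found for 7 of the 14, against 23.2% of all genes. Besides the called genes these were Srgn (difference 0.64), Plat (0.62), Apob (0.28) and Cpn1 (-0.29). Thbd, the thrombin receptor of parietal endoderm, went from 2.34, 3.30 and 2.77 to 4.19, 4.26 and 3.96 (difference 1.33, adjusted p = 0.0137 from limma). Amn, a partner of the endocytic receptor cubilin in visceral endoderm, went from 3.81, 3.26 and 3.21 to 2.46, 2.73 and 2.38 (difference -0.90, adjusted p = 0.0231 from limma). Rbp4, a secreted retinol carrier, went from 3.03, 3.60 and 3.42 to 2.81, 2.53 and 2.25 (difference -0.82, adjusted p = 0.0360 from limma). The groups did not overlap for any of the 3, but each call was lost in fits that left out an array: Thbd without replicate 3 of Dcr WT or 2 of Dcr KO, Amn without replicate 1 or 3 of Dcr KO, and Rbp4 in 4 of 6 fits (highest adjusted p = 0.0597, adjusted p = 0.0601 and adjusted p = 0.117 from limma).

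Among 14 relatives and cofactors of the members, 1 was tested. It was Zfpm2, which encodes FOG2, a cofactor of GATA proteins, at 4.49, 4.47 and 4.16 in Dcr WT and 4.86, 4.81 and 5.35 in Dcr KO. Its difference of 0.64 passed (adjusted p = 0.0468 from limma) but was lost in each of the 6 fits that left out an array (highest adjusted p = 0.135 from limma). Its brighter probe set had a difference of 1.05, and its dimmer had 0.23 with overlap between groups. Of the 13 others, Gata1 (2.55 and 2.40) and Gata5 (1.72 and 1.70) stayed near the floor. Cdx4, a relative of Cdx2, was chosen for mention after its values were seen, at 3.31, 3.53 and 3.73 in Dcr WT and 2.36, 2.26 and 2.04 in Dcr KO, a difference of -1.30 (adjusted p = 0.00280 from limma with no minimum). It was the 1 relative called in that fit among those under the minimum, where 3.28% of all genes were called lower. It passed without each array in turn.

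**Figure D4:**
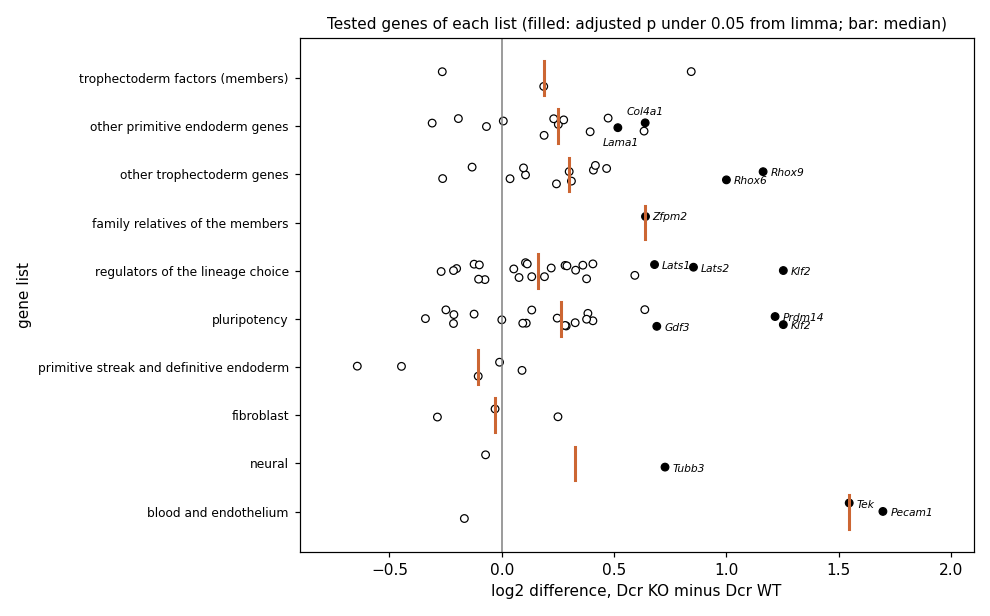
Log2 difference between the groups (Dcr KO minus Dcr WT) for every tested gene, in rows by list (filled points, adjusted p under 0.05 from limma; orange bars mark medians and the height of a point within its row has no meaning). Rhox6 and Rhox9 stand apart among the other trophectoderm genes, Tek and Pecam1 have the largest differences at 1.55 and 1.70, and genes under the minimum, some of which were called lower or higher with no minimum, are not shown.

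Of 24 tested regulators that decide between these lineages and pluripotency, 3 were called, all higher. Over all genes tested, 6.91% were called higher and 6.42% lower. Klf2, a factor of the naive state, rose by 1.25 on the log2 scale (adjusted p = 0.00161 from limma), and Lats2 and Lats1, the Hippo kinases that keep YAP out of the nucleus and thereby hold Cdx2 down in the inner cell mass, rose by 0.85 and 0.68 (adjusted p = 0.0158 and adjusted p = 0.0189 from limma). Lats2 had a Dcr WT mean of 3.92, under the minimum, and reached it over all arrays through its Dcr KO mean of 4.78. Its 6 probe sets also had unequal differences, from -0.03 to 2.1. It did not pass without replicate 3 of Dcr WT (adjusted p = 0.0609 from limma), nor did Lats1 without replicate 2 of Dcr KO (limma, adjusted p = 0.0674). Sos1, of the FGF pathway that drives primitive endoderm, had 0.33 (adjusted p = 0.0842 from limma). Of 20 pluripotency genes tested, Klf2, Prdm14 (1.22, adjusted p = 0.0114 from limma) and Gdf3 (0.69, adjusted p = 0.0216 from limma) rose, none fell and 17 did not pass, with a median difference of 0.26. Gdf3, a TGF-beta ligand, did not pass in 3 of the 6 fits that left out an array, those without replicate 1 or 2 of Dcr WT and without replicate 2 of Dcr KO (highest adjusted p = 0.0701 from limma). Pou5f1, which represses Cdx2, had a difference of 0.38 (adjusted p = 0.138 from limma), Sox2 had 0.33 (adjusted p = 0.0613 from limma) and Nanog, which represses Gata6, had 0.00.

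Several members are also used outside the extraembryonic lineages, so markers of those cells were read on the same arrays. Of 14 markers of blood and endothelium, where Gata2, Gata3, Sox7 and Sox17 also act, 3 were tested and 2 rose. Over all genes tested, 6.91% were called higher. Pecam1, an adhesion receptor of endothelium that mESCs also carry, went from 5.25, 4.40 and 5.25 to 6.45, 6.51 and 7.03 (difference 1.70, adjusted p = 0.00911 from limma). Tek, the angiopoietin receptor, went from 5.43, 5.17 and 5.85 to 6.77, 7.10 and 7.22 (difference 1.55, adjusted p = 0.00492 from limma). The third, Etv2, had a difference of -0.17 (adjusted p = 0.403 from limma). Of the 11 under the minimum, Cdh5 (1.72 and 1.73), Tal1 (2.13 and 2.13) and Tie1 (1.65 and 1.48) were at the floor. With no minimum none of the 11 was called, and 3 had an unadjusted p under 0.05 from limma, against 23.2% of all genes. They were Lmo2 (difference -0.46), Cd34 (-0.36) and Runx1 (0.30). Kdr went from 1.82, 1.71 and 1.66 to 1.97, 2.01 and 3.44 and did not pass (adjusted p = 0.247 from limma with no minimum). Its groups did not overlap, with Dcr KO higher, as in 13.3% of all genes. Its Dcr KO mean of 2.47, against 1.73 in Dcr WT, rested on replicate 3. The median difference of the 14 was 0.0075. Their summed log2 level, Pecam1 and Tek included, lay between 37.8 and 39.7 in Dcr WT and between 40.9 and 43.1 in Dcr KO. Their part in the Gata2 and Gata3 differences was not tested. In these bulk samples, fewer cells of a type and less RNA per cell cannot be told apart.

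Of 19 measured markers of primitive streak and definitive endoderm, where Eomes, Gata6 and Sox17 also act, 5 were at or above the minimum. None of these was called by limma. Mixl1 alone had an unadjusted p under 0.05, as did 32.0% of all genes tested. Mixl1 had a difference of -0.64 (adjusted p = 0.109 from limma), Lefty2 -0.45 (adjusted p = 0.177 from limma), Nodal -0.11, Trh 0.09 and Lefty1 -0.01, and the summed level of the 19 lay between 80.1 and 84.5 in Dcr WT and between 77.9 and 80.7 in Dcr KO. Like Eomes, Mixl1 was highest on Dcr WT replicate 2 (6.20) and lowest of the controls on Dcr WT replicate 3 (5.15). Of the 14 streak and endoderm markers under the minimum, 2 were called lower and 2 higher in the fit with no minimum. In that fit 3.28% of all genes were called lower and 3.85% higher. Fgf8, a growth factor of the streak, went from 4.28, 4.21 and 3.33 to 2.50, 2.27 and 2.49 (difference -1.52, adjusted p = 0.0110 from limma). Fgf5, a growth factor of the primed epiblast, went from 4.49, 4.35 and 4.19 to 3.52, 3.44 and 2.49 (difference -1.19, adjusted p = 0.0311 from limma), so that its Dcr WT mean was above the minimum and its Dcr KO mean below. Foxa1 and Cxcr4, of definitive endoderm, had differences of 0.60 and 0.41 (adjusted p = 0.0216 and adjusted p = 0.0327 from limma). Fgf8 passed without each array in turn, Fgf5 and Foxa1 in 2 of 6 such fits each and Cxcr4 in 0 (highest adjusted p = 0.0873, adjusted p = 0.0717 and adjusted p = 0.104 from limma).

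None of 3 fibroblast markers at or above the minimum was called by limma or had an unadjusted p under 0.05, with Col1a1 at 0.25, S100a4 at -0.29 and Pdgfrb at -0.03. Of the 9 fibroblast markers under it, 5 had an unadjusted p under 0.05 from limma with no minimum, against 23.2% of all genes. Postn, a matrix protein, was called (2.21 and 2.93, difference 0.72, adjusted p = 0.0144 from limma), but not without replicate 2 of Dcr KO (limma, adjusted p = 0.0592). Col3a1 had 1.22, Dcn 0.65, Thy1 -0.62 and Col1a2 -0.71 (adjusted p = 0.0563, adjusted p = 0.0912, adjusted p = 0.0768 and adjusted p = 0.101 from limma). The summed level of the 12 lay between 32.8 and 35.4 in Dcr WT and between 33.9 and 35.7 in Dcr KO, and its part in the differences of Lama1 and Col4a1 was not tested. Of 2 tested neural markers, Tubb3, a tubulin of neurons, rose by 0.73 on the log2 scale (adjusted p = 0.0100 from limma) and Nes had -0.07. Over all genes, 6.91% of those tested and 3.85% of those in the fit with no minimum were called higher. With no minimum, the neural factors Sox1 (2.40 and 3.30, difference 0.89, adjusted p = 0.00949 from limma) and Pax6 (2.33 and 2.92, difference 0.58, adjusted p = 0.0148 from limma) were also called higher, Pax6 not without replicate 2 of Dcr KO (limma, adjusted p = 0.0619). The summed level of the 8 measured neural markers was 25.6 to 26.0 in Dcr WT and 28.3 to 29.2 in Dcr KO, and its part in the members' differences was not tested.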

How the data were processed

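Per the labels, the authors made the deposited log2 values, which give each probe set on each array, with GCRMA 2.20.0 in R 2.11.1. A legend of the study says that the day 5 arrays were normalized with arrays of chronic deletion lines, not used here, which could move these values. The number of arrays limits precision.

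A gene's value is the mean log2 of its probe sets with 1 symbol (34945 of 45037; 932 had several, 9160 none). Groups were compared with limma 3.58.1 (lmFit, eBayes; R 4.3.3) over the 8782 genes that reached a mean of 4, or over all 18193 for members under it, with Benjamini-Hochberg adjustment. Each probe set was also fitted alone. The code was tested on simulated data. Promoter windows are from RefSeq.

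Members and lists were chosen with earlier results of these data known. The genes named are the members, Dicer1, Pou5f1, Sox2, Nanog and, per list, up to 4 tested genes of smallest adjusted p and all that passed where 6 or fewer did. Others named were chosen after their values were seen. Alternatives were no minimum, a stricter one (6), the brightest probe set per gene, quantile or median scaling, trended variance, a replicate block and leaving out each array.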

Additional observations from a re-analysis of the deposited data

How the results depend on the processing

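Of 137 recomputed member differences, 123 kept their direction and side of the threshold, 10 changed sign and 4 changed side (Gata2 lost its call in 3 and Gata3 gained one). The fits with no minimum that also changed another choice were added after the data were seen. The sign changes were of Sox7 and Hnf4a, both near 0 and not called. Sox7 became -0.10 with its brightest probe set, alone in the probe set fit or standing for the gene, -0.015 with median centring, and between -0.072 and 0.11 without single arrays (negative without Dcr WT replicate 2, at -0.027, or 3, at -0.072, or Dcr KO replicate 1, at -0.0058, or 2, at -0.013). Hnf4a became 0.03 with its brightest probe set, on its own too, and 0.15 with another. Gata2 lost its call on its brighter probe set, with a difference of 0.65, in the probe set fit and standing for the gene, and without Dcr KO replicate 2, at 0.97.

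Members called were 0 in the main setting and 1 with no minimum, and from 0 to 1 without single arrays. Members up at least 1.2-fold were 1, or 3 with the brightest probe set, and members down were 1, or 0 at 1.5-fold. Called genes of the other 9 lists were 13, or 22 with no minimum, and 7 to 12 without single arrays (7 without Dcr KO replicate 2). Called genes over the whole table were 1171 (607 higher, 564 lower), with 404 higher under the stricter minimum. Without single arrays they were 357 (without Dcr KO replicate 2) to 783, with 220 to 465 higher and 137 to 376 lower. Replicate numbers are shared between groups, and the labels do not say whether same-numbered arrays were made side by side. Deviations of same-numbered arrays from their group means had correlations of -0.22, -0.02 and 0.03, against -0.23 to 0.31 for differently numbered ones. Deviations within a group of 3 sum to 0, so these values cannot decide whether the arrays are paired. The main fit does not pair them. With the replicate block 597 genes were called (354 higher, 243 lower), no member with the minimum, and Gata2 kept its call with no minimum (adjusted p = 0.0281 from limma). The cause of these shifts was not tested. Limits are these: 7 of 10 members lie under the minimum, and 3 arrays per group give counts that move when 1 array is left out.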
